A study of Mus musculus with 16 samples.

Results

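The cytochrome P450 (Cyp) genes are the 98 protein-coding genes of the mm9 gene models whose symbol is Cyp followed by a digit, out of 21693 protein-coding genes examined. They were followed through ChIP-seq of 6 histone marks in jejunal epithelial cells of C57BL/6 mouse neonates at postnatal day 12. Cells came from wild-type mice (WT, named F/FUN by the submitters) and from mice whose intestine lacks NCoR1 through gene deletion (KO, named ΔIECUN). The suffix UN is not explained in the sources used here, and neither the driver of the deletion nor the number of animals behind a library is given in them. Each genotype had 1 library per mark, so the 12 ChIP libraries hold no replicate, and every difference described below is between a pair of libraries with no replicate check. The 4 input libraries were not analysed here.

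P450 enzymes are haem proteins that insert an oxygen atom into their substrates, and most sit in the endoplasmic reticulum, where cytochrome P450 reductase hands them electrons. Families 1 to 3 oxidise mainly drugs, plant compounds and pollutants, family 4 mainly fatty acids, and the remaining families act on cholesterol, bile acids, steroid hormones, vitamin D and retinoic acid. The small intestine is the first site at which many swallowed compounds meet these enzymes. Many of the genes are controlled by nuclear receptors, among them the pregnane X receptor, the constitutive androstane receptor, PPARα and the retinoic acid receptors, and NCoR1 is a corepressor that brings histone deacetylase activity to nuclear receptors. Acetylation of histone H3 at lysine 27 or 9 (H3K27ac, H3K9ac) and methylation at lysine 4 go with active promoters and enhancers, while H3K9me3 and H3K27me3 go with silent chromatin.

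The authors' lists name the regions where the library of one genotype exceeded that of the other for the same mark at a q-value under 0.05, and such regions are called KO-higher or WT-higher. The fold of a region is the authors' ratio of the pileup of tags at its summit to the background nearby in the library of the other genotype, and the pileup is scaled to the smaller library. The ratio says nothing of the level of a gene that has no region, and in a population of cells a mark present in more cells cannot be told apart from more of the mark per cell. A region was given to the gene whose transcription start was closest to its summit, at up to 50 kb. Sequencing depth ran from 27946003 to 47976125 tags per library, and from 23925163 to 32444815 once duplicate tags had been dropped. A share of genes is given with its 95% Wilson interval, which covers counting error only, and genes in tandem clusters are not independent.

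The regions that carry the main observations are shown here as the plus strand of mm9, in lower case, with matches on either strand to the nuclear receptor hexamer AGGTCA, to the variant AGTTCA, to the variant GGGTCA or to the variant GGTTCA in capitals. The first set shows the KO-higher acetylation region of highest fold at a P450 gene for each mark, and the KO-higher H3K27ac region at the start of Cyp4a31.
Cyp3a25, KO-higher H3K9ac, chr5:146819785-146819996, in an intron: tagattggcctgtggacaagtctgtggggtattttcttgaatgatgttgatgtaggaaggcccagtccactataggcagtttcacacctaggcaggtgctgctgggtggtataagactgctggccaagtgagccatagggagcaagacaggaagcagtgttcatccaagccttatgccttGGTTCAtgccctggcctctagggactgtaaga
Cyp3a13, KO-higher H3K27ac, chr5:138375677-138375884, upstream of the gene: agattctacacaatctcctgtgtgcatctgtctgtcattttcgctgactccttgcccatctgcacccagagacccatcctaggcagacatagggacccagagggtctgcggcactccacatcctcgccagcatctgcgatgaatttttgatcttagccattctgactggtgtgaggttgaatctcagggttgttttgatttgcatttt
Cyp4a31, KO-higher H3K27ac, chr4:115236237-115236461, at the start: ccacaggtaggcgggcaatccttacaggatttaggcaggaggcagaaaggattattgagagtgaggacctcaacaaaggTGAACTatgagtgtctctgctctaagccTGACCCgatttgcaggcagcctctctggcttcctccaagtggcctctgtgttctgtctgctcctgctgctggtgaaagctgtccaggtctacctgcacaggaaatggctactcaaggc

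The second set shows regions of the opposite or of mixed direction. The region at Cyp2d22 had lower H3K4me3 and higher acetylation in the KO libraries, those at Cyp51 and Cyp8b1 had lower H3K27ac, and that at Cyp26a1 had lower H3K4me3 and holds a direct repeat of hexamers with 5 bases between them, which is in capitals as a whole, spacer included.
Cyp2d22, WT-higher H3K4me3, chr15:82210421-82210598, at the start: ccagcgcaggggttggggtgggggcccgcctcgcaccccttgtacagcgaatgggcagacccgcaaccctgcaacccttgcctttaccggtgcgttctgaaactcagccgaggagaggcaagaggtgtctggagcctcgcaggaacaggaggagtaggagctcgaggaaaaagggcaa
Cyp51, WT-higher H3K27ac, chr5:4104029-4104261, at the start: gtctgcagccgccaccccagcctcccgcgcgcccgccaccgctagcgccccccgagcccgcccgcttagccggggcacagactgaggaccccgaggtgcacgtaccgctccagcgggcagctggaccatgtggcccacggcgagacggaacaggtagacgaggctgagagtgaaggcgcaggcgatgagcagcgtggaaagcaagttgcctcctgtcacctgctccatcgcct
Cyp8b1, WT-higher H3K27ac, chr9:121835419-121835598, upstream of the gene: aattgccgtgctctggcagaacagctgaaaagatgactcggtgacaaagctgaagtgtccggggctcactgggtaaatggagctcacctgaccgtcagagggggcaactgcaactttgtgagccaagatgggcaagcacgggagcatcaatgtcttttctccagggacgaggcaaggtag
Cyp26a1, WT-higher H3K4me3, chr19:37772144-37772292, at the start: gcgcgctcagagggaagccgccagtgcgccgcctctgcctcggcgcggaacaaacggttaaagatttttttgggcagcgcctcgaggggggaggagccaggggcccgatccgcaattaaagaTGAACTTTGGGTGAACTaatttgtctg

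Across the 10 lists, 66 of 23511 regions belonged to P450 genes, 44 of them KO-higher and 22 WT-higher. They lay at 36 members (36.7%), beside 38.6% of all genes, so the superfamily as a whole had regions about as often as other genes. The other 62 members had no region in any list. Of the 36 members with regions, 25 had a single one, and Cyp3a25 had the most, with 10. The 98 members fall into 34 loci when members less than 500 kb apart are joined, and 24 members have no other member in their locus. In all, 39 of the regions lay inside the member's own gene, 26 lay outside protein-coding genes, and 1 lay inside another gene.

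KO-higher H3K27ac was the list with the most P450 genes. It held 16 of the 98 members, 16.3% (10.3 to 24.9), with 11.6% for all genes, which lies inside that interval. WT-higher H3K27ac lay at 4 members, 4.08% (1.60 to 10.03), beside 7.58% of all genes. KO-higher H3K9ac lay at 5 members, 5.10% (2.20 to 11.4), beside 4.02%, and all 5 also had KO-higher H3K27ac. Over all genes 873 had KO-higher H3K9ac, 2514 KO-higher H3K27ac and 2669 either, so most with H3K9ac had H3K27ac too. WT-higher H3K9ac lay at 2 members, 2.04% (0.561 to 7.14), beside 7.63%. Either acetylation mark was KO-higher at 16 members (16.3%, all genes 12.3%) and WT-higher at 6 members (6.12%, all genes 12.8%). Among P450 genes KO-higher acetylation was thus the more frequent direction. No member had both directions, but the share of all genes with both was not counted, so nothing is read from this. The 16 are the members with KO-higher H3K27ac, so the interval of 10.3 to 24.9 is theirs too, and it includes 12.3%. Over all genes the pooled directions were about equally frequent, but the marks differed. There H3K27ac alone was more often KO-higher (11.6% beside 7.58%) and H3K9ac more often WT-higher (7.63% beside 4.02%).

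WT-higher H3K4me3 lay at 8 members, 8.16% (4.19 to 15.3), where the share of all genes was 15.3%. KO-higher H3K4me3 lay at 1 member, Cyp3a25, beside 0.300% of all genes. WT-higher H3K4me1 lay at 4 members (all genes 7.61%). The repressive marks were sparse. KO-higher H3K9me3 lay at 3 members (all genes 2.28%), WT-higher H3K9me3 at 3 (all genes 1.09%) and WT-higher H3K27me3 at 1 (all genes 0.867%). For H3K4me1 and H3K27me3 the deposited KO list repeats the WT list, so KO-higher regions of these marks are not analysed here.

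**Figure D1:**
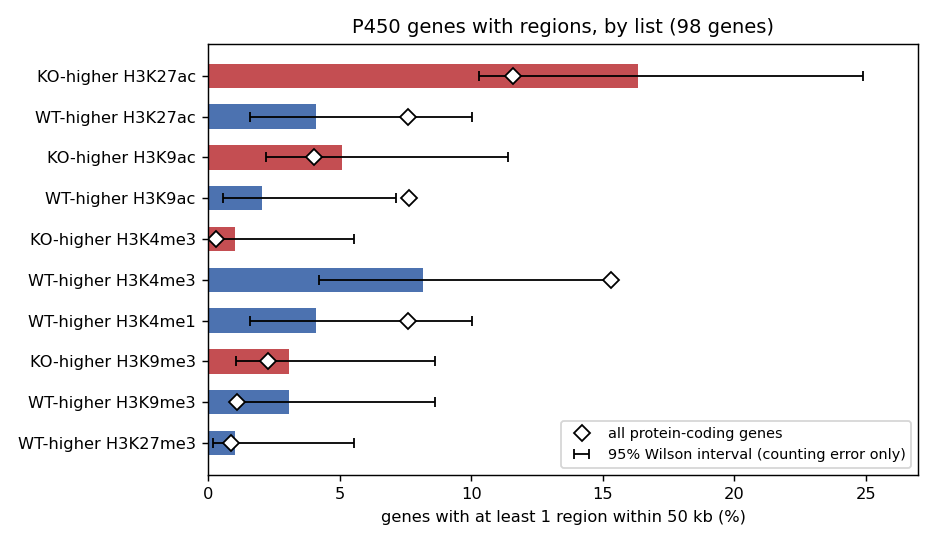
Share of the 98 P450 genes (bars, percent) with at least 1 region within 50 kb in each of the 10 lists, with 95% Wilson intervals, and the share of all 21693 protein-coding genes (diamonds). The bar for KO-higher H3K27ac is the longest, at 16.3% beside 11.6% of all genes, and the bars for the WT-higher lists of H3K27ac, H3K9ac, H3K4me3 and H3K4me1 are shorter than the share of all genes.

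Roles were set by gene name. The xenobiotic group is families 1 to 3 without Cyp2j and Cyp2r1, and the fatty acid group is family 4 with Cyp2j. By role, 11 of the 53 xenobiotic genes had KO-higher acetylation and 1 had WT-higher acetylation. Of the 25 fatty acid genes 5 and 1 did, beside 12.3% and 12.8% of all genes. Of the 7 bile acid and sterol genes none had KO-higher acetylation and 3 had WT-higher acetylation. No difference between roles was tested. Of the 39 KO-higher acetylation regions, 30 lay at xenobiotic genes and 9 at fatty acid genes, and the 16 members lay in 9 loci. None of the 6 steroid hormone genes, the 3 retinoic acid genes or the 3 vitamin D genes had KO-higher acetylation, but at the 12.3% of all genes groups of this size, the bile acid and sterol genes included, can hold none, so nothing is read from these counts of 0. By subfamily, KO-higher acetylation lay at 4 of 9 Cyp3a genes, 3 of 6 Cyp4a genes, 2 of 9 Cyp2d genes, 2 of 15 Cyp2c genes, 1 of 8 Cyp4f genes and 0 of 5 Cyp2b genes, beside 12.3% of all genes. The Cyp2c and Cyp4f counts are near that share. The Cyp3a genes alone held 16 of the 39 regions, and without them KO-higher H3K9ac was left at 3 members.

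**Figure D2:**
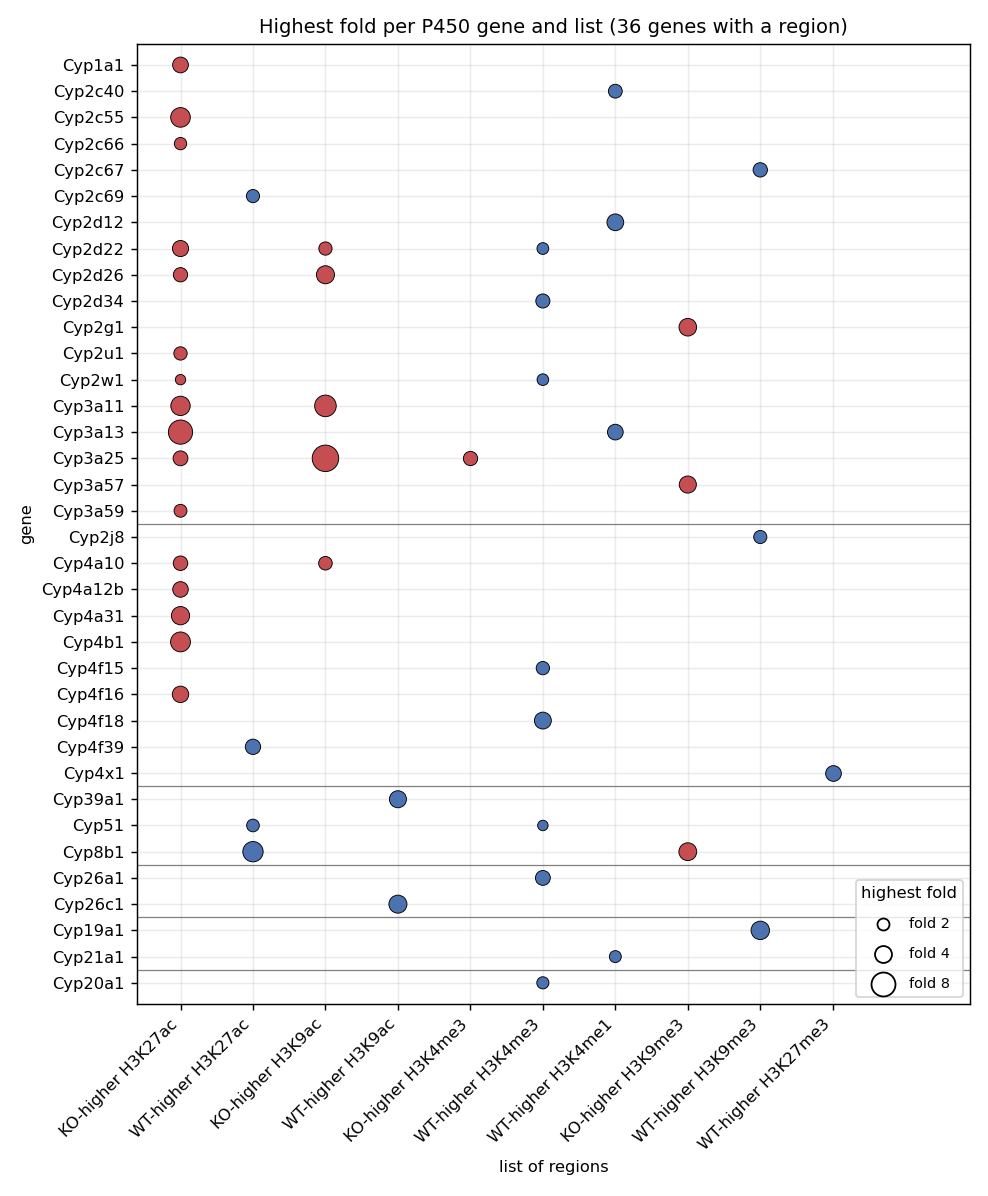
Highest fold of each of the 36 P450 genes with a region (rows, grouped by role) in each of the 10 lists (columns); the area of a circle grows with the fold, red is KO-higher and blue is WT-higher. Most red circles stand in the first column, at xenobiotic and fatty acid genes in the upper rows, and the bile acid, sterol and retinoic acid genes below them have blue circles, with 1 red H3K9me3 circle at Cyp8b1.

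Cyp3a enzymes are the main drug oxidases of the intestine and liver, and their genes are classic targets of the pregnane X receptor. Cyp3a25, Cyp3a11 and Cyp3a59 lie in 1 cluster of 8 members on chromosome 5, and Cyp3a13, the member known for its intestinal expression, lies apart on the same chromosome. Cyp3a25 had 6 KO-higher H3K9ac regions. The region of highest fold lay 1.27 kb downstream of the start, in an intron, with a pileup of 47.9 and a fold of 9.77, rank 7 of the 1883 regions of that list. A promoter region at 0.607 kb had a fold of 6.94, and regions at 1.90, 3.70 and 4.32 kb had folds of 6.22, 2.31 and 5.43. The sixth lay 8.23 kb upstream, with a fold of 6.78. Acetylation at Cyp3a25 was thus higher in the KO library from its promoter into its introns.

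In the same introns of Cyp3a25, 3 marks were KO-higher over shared bases. At about 4.3 kb from the start H3K9ac (fold 5.43), H3K27ac (fold 3.07, pileup 69) and H3K4me3 (fold 2.73, pileup 29.1) overlapped, and at 3.71 kb H3K4me3 (fold 2.84) overlapped the H3K9ac region. These 2 were the only KO-higher H3K4me3 regions at a P450 gene, and both had folds below the median of that list, 4.32. A further KO-higher H3K27ac region lay 22.2 kb upstream, with a fold of 2.79. For 6 of the 8 H3K9ac and H3K4me3 regions at Cyp3a25 the closest copy elsewhere in mm9 lay at Cyp3a59, its neighbour, with an identity of 94.8% for the region of highest fold and 98.7% for the region at 1.90 kb. At Cyp3a59 itself 1 KO-higher H3K27ac region lay 4.30 kb from the start, with a fold of 2.32 and a pileup of 22. Some Cyp3a25 regions also have many copies of at least 85% identity elsewhere in mm9. The H3K9ac regions at 1.90 kb and 8.23 kb upstream have 1272 and 18, and the H3K27ac region 22.2 kb upstream has 629. The sources used here do not say how tags that match several places were placed. Values at Cyp3a25 and Cyp3a59 are therefore uncertain.

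Cyp3a13 had 4 KO-higher H3K27ac regions. The strongest, 12.9 kb upstream, had a pileup of 72 and a fold of 8.17, rank 16 of 7111. Regions 6.71 and 7.23 kb upstream had pileups of 100 and 147 and folds of 2.75 and 1.66, and an intronic region 8.22 kb downstream had a fold of 3.45. None of these had a copy of at least 85% identity over 80% of its length elsewhere in mm9. Shorter matches were not counted, so a part of such a region can still have copies. A WT-higher H3K4me1 region lay 0.815 kb from the start (pileup 20, fold 3.43) and shared no bases with the acetylation regions. Only the WT-higher list was used for H3K4me1, so the direction of this region was fixed by the list. Of the 4 members covered, Cyp3a13 was the only one past an FDR of 0.05 in the authors' deposited table of RNA, where its log2 fold change, read as KO over WT, was 0.87 (FDR 8.81e-18). That table covers only genes the authors named for WT-higher H3K4me1 regions. Of the 1549 genes with RNA values in it, 14.6% passed that FDR. The authors' deposited table lists the 3 other members it covers at an FDR of 1, with log2 fold changes of 0.28 for Cyp2d12, 0 for Cyp2c40 and -2.19 for Cyp21a1.

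Cyp3a11, the main hepatic and intestinal Cyp3a enzyme of the adult mouse, had a KO-higher H3K9ac region 0.808 kb downstream of its start, with a pileup of 17.2 and a fold of 6.49. Its 2 KO-higher H3K27ac regions were far upstream, at 35.3 kb (fold 5.23, pileup 25) and 36.4 kb (fold 2.19, pileup 75). Cyp3a57 had no active-mark region and a KO-higher H3K9me3 region 20.3 kb upstream (fold 4.08, pileup 19), in sequence with a copy of 95.8% identity elsewhere. The 4 other Cyp3a members, Cyp3a16, Cyp3a41a, Cyp3a41b and Cyp3a44, had no region in any list.

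**Figure D3:**
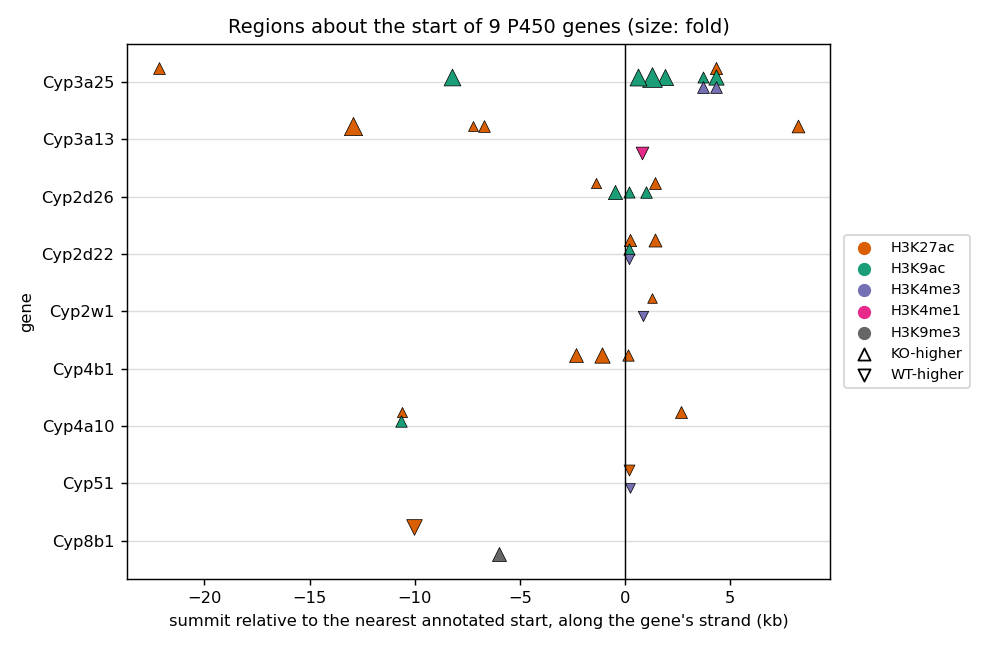
Position of region summits relative to the nearest annotated start of 9 P450 genes, in kb along the gene's strand; triangles that point up are KO-higher, those that point down WT-higher, colour gives the mark and size the fold. Cyp3a25 shows KO-higher regions of 3 marks downstream of its start, Cyp3a13 shows H3K27ac regions away from its start with WT-higher H3K4me1 near it, and Cyp51 has WT-higher regions alone.

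The Cyp2d enzymes oxidise many plant alkaloids and drugs in other mammals, and the mouse has 9 genes in 1 cluster on chromosome 15. The 2 genes at the ends of the cluster had KO-higher acetylation. At Cyp2d22 an H3K27ac region at the promoter, 0.234 kb from the start, had a pileup of 127 and a fold of 3.15, and an H3K9ac region at 0.188 kb had a pileup of 74.95 and a fold of 2.45. A WT-higher H3K4me3 region (pileup 52, fold 1.93) lay on the same bases, so acetylation and H3K4me3 went in opposite directions there. A second H3K27ac region, 1.43 kb into the gene, had a fold of 3.63.

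At Cyp2d26 the KO library was higher in H3K9ac on both sides of the start. Regions at 0.995 and 0.193 kb downstream had folds of 2.63 and 2.38, the latter with a pileup of 101, and a region 0.476 kb upstream had a fold of 4.53. H3K27ac was KO-higher 1.44 kb downstream (fold 2.85) and 1.37 kb upstream (fold 1.82), flanking the H3K9ac regions without sharing bases with them. Inside the cluster, Cyp2d12 had WT-higher H3K4me1 (fold 3.91, 21.99 kb downstream of its start) and Cyp2d34 had WT-higher H3K4me3 (fold 2.77, 12.2 kb downstream, in sequence with a copy of 100% identity elsewhere). Cyp2d9, Cyp2d10, Cyp2d11, Cyp2d40 and Cyp2d37-ps had no region.

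The Cyp2c genes, which make hydroxylated and epoxidised fatty acids as well as drug metabolites, had a region at 5 of 15 members, near the 38.6% of all genes. Cyp2c55 had KO-higher H3K27ac in an intron 2.84 kb from its start, with a fold of 5.36 and a pileup of 21. Its neighbour Cyp2c66 had a region 1.90 kb upstream with a fold of 2.12, in sequence with 76 copies of at least 85% identity elsewhere. WT-higher regions lay near Cyp2c69 (H3K27ac, fold 2.41, 48.6 kb upstream), Cyp2c40 (H3K4me1, fold 2.66) and Cyp2c67 (H3K9me3, fold 2.86). The Cyp2c40 region has a copy of 98.1% identity elsewhere in mm9, and the Cyp2c67 region has copies of 100% identity. The other 10 members of the subfamily, among them Cyp2c29 and Cyp2c65, had none.

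Among single genes of these families, Cyp1a1, the target of the aryl hydrocarbon receptor that oxidises polycyclic hydrocarbons, had KO-higher H3K27ac 6.43 kb upstream (fold 3.46, pileup 50), while Cyp1a2 and Cyp1b1 had no region. The Cyp1a1 region has 28 copies of at least 85% identity elsewhere in mm9. Cyp2u1 had 2 KO-higher H3K27ac regions, with folds of 1.69 and 2.47. Cyp2w1 had KO-higher H3K27ac 1.3 kb into the gene, with a fold of 1.49 and a pileup of 141, and WT-higher H3K4me3 at 0.841 kb (fold 1.88), a second case of opposite directions close together. Its H3K27ac fold was the lowest of the 27 P450 regions in that list. On chromosome 7 a cluster of 13 genes holds all Cyp2b and Cyp2a members. Its 1 region was KO-higher H3K9me3 at Cyp2g1 (fold 4.33, pileup 11), in sequence with a copy of 98.7% identity elsewhere. Cyp2b10, the standard target gene of the constitutive androstane receptor, was thus in no list, nor was Cyp2e1, which oxidises ethanol. The single genes Cyp2ab1 and Cyp4v3 had no region either.

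Family 4 enzymes hydroxylate fatty acids at the end of the chain, and Cyp4a10 and Cyp4a14 are standard PPARα targets in mouse liver. A cluster of 8 genes on chromosome 4, which holds the Cyp4a genes, Cyp4b1 and Cyp4x1, had 9 regions, 8 of them KO-higher acetylation. Cyp4b1 had 3 KO-higher H3K27ac regions. Near an inner start of the gene, regions 1.098 and 2.35 kb upstream had folds of 5.48 and 4.30 and pileups of 48 and 63, and the region at the outer start, at 0.116 kb, had a fold of 2.52 and a pileup of 64. The region with the fold of 5.48 has a copy of 97.1% identity elsewhere in mm9.

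Cyp4a31 had KO-higher H3K27ac at its start, 0.071 kb downstream, with a fold of 4.66 and a pileup of 36. Its sequence, printed above, holds 2 nuclear receptor hexamers. The Cyp4a31 region has 2 copies of at least 85% identity elsewhere in mm9, the closest (92.6%) at Cyp4a32. Cyp4a10 had KO-higher H3K27ac (fold 1.77, pileup 80) and H3K9ac (fold 2.57, pileup 47.9) over shared bases 10.6 kb upstream. It also had intronic KO-higher H3K27ac 2.66 kb downstream (fold 2.93). That intronic region has 36 copies of at least 85% identity elsewhere in mm9, the closest (91.1%) at Cyp4a31. The region joined to Cyp4a12b, 27.9 kb downstream of its start (fold 3.38), has a copy of 98.4% identity at Cyp4a12a, so these 2 genes cannot be told apart there. Cyp4a14 and Cyp4a32 had no region, and Cyp4x1 had the only H3K27me3 region of the superfamily, WT-higher, with a fold of 3.44 and a pileup of 16.2.

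The Cyp4f genes, whose products inactivate leukotrienes and hydroxylate long-chain fatty acids, showed no common direction. Cyp4f16 had KO-higher H3K27ac 2.69 kb upstream (fold 3.75), Cyp4f39 had WT-higher H3K27ac 13.6 kb downstream (fold 3.28), and Cyp4f15 and Cyp4f18 had WT-higher H3K4me3 (folds 2.46 and 3.98). The Cyp4f15 region has 99903 copies of at least 85% identity elsewhere in mm9 and 44 of at least 95%, so its place is uncertain. The Cyp4f18 region also overlaps Zfp961. Of the 8 Cyp2j genes, which make epoxides of arachidonic acid, only Cyp2j8 had a region, WT-higher H3K9me3 with a fold of 2.40.

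Acetylation at genes of cholesterol and bile acid metabolism was WT-higher at 3 of 7, with 1 region each, beside 12.8% of all genes. Within 10 kb of a start only Cyp51 of these was left. Cyp51, lanosterol demethylase of cholesterol synthesis, had WT-higher H3K27ac (fold 2.24, pileup 90.3) and WT-higher H3K4me3 (fold 1.52, pileup 125) over shared bases at its start. It was the only P450 gene with regions of more than 1 active mark in the WT-higher direction. Cyp8b1, the sterol 12-hydroxylase that sets the share of cholic acid in bile, had the highest fold of the 4 WT-higher H3K27ac regions, 5.76 at 10.1 kb upstream, rank 61 of 2510, with a pileup of 27.8. A KO-higher H3K9me3 region lay 6.01 kb upstream of it (fold 4.43, pileup 19). Cyp39a1, an oxysterol hydroxylase, had WT-higher H3K9ac deep in the gene, 38.6 kb from its start (fold 4.04, pileup 14). Cyp7a1, the rate-limiting enzyme of bile acid synthesis, Cyp7b1, Cyp27a1 and Cyp46a1 had no region.

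Cyp26 enzymes break down retinoic acid, and Cyp26a1 is a direct target of the retinoic acid receptors. A WT-higher H3K4me3 region lay on the Cyp26a1 promoter, 0.1 kb upstream of the start, with a fold of 3.08 and a pileup of 44. The region contains TGAACTTTGGGTGAACT, read on the plus strand, the direct repeat known as the retinoic acid response element of this promoter. Exact direct repeats with 5 bases between hexamers were present in 3 of 4141 windows of 300 bases in that list (0.0724%). Cyp26c1, its neighbour, had WT-higher H3K9ac 7.63 kb upstream (fold 4.53, pileup 16), inside an intron of Exoc6, and Cyp26b1 had no region. Neither acetylation mark was listed at Cyp26a1.

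Steroid hormone, vitamin D and unassigned genes had few members. The vitamin D genes Cyp24a1, Cyp27b1 and Cyp2r1 had no region. Cyp24a1 inactivates vitamin D and is a target of the vitamin D receptor. Of the steroid hormone genes, Cyp19a1 (aromatase) had WT-higher H3K9me3 in an intron (fold 4.74, pileup 32.2). Cyp21a1 had WT-higher H3K4me1 6.85 kb upstream (fold 1.99) in sequence with a copy of 96.3% identity near C4b. The summit of the Cyp21a1 region lies inside C4a, which the gene models list as a processed transcript and not as protein-coding. Cyp11a1, Cyp11b1, Cyp11b2 and Cyp17a1 had none. Cyp20a1, an enzyme with no settled substrate, had WT-higher H3K4me3 0.341 kb from its start (fold 2.05, pileup 71).

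Folds of the P450 regions were set beside the whole lists from which they came. For KO-higher H3K27ac the median fold was 2.93 over 27 P450 regions and 2.52 over the list, and 17 of the 27 lay above the list's median. For KO-higher H3K9ac it was 4.98 over 12 regions and 2.91 over the list, with 7 of 12 above the median. Of those 12 regions, 6 belong to Cyp3a25 alone. WT-higher H3K4me3 had medians of 2.26 over 8 regions and 2.10 over the list. With a fold of at least 4, KO-higher H3K27ac was left at 5 members and KO-higher H3K9ac at 3. Most regions of the whole lists were below that fold too, with upper quartiles of 3.21 for KO-higher H3K27ac and 3.81 for KO-higher H3K9ac. The share of all genes at that fold was not counted.

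**Figure D4:**
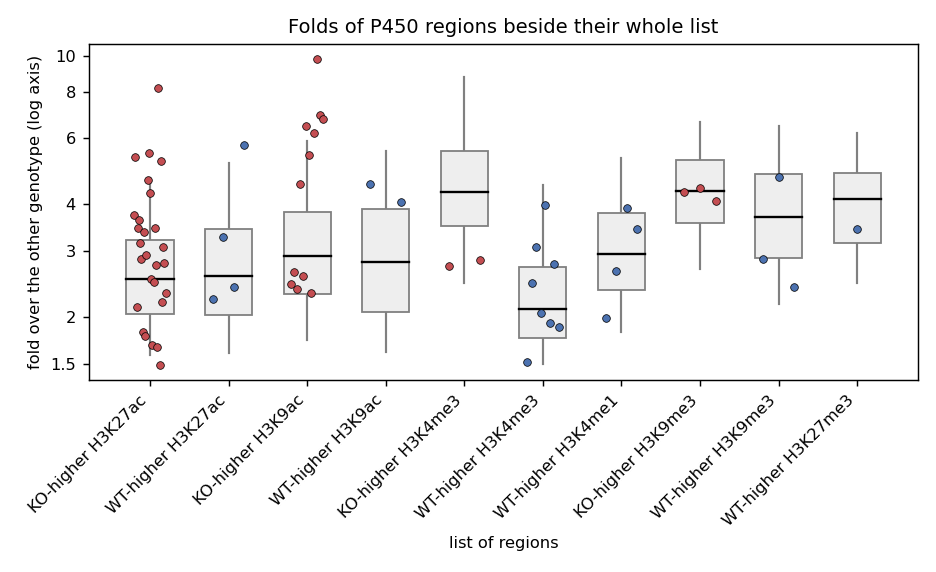
Fold of each P450 region (points, log axis) in the 10 lists, beside the whole list (box, quartiles; line, median; whiskers, the 5th and 95th percentiles). In the KO-higher H3K9ac list 6 points stand above 5, and the highest, 9.77, is at Cyp3a25, whereas the P450 points of WT-higher H3K4me3 straddle that list's median of 2.10.

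Most KO-higher H3K27ac lay away from promoters. Of 27 P450 regions, 3 (11.1%) were within 1 kb of a start, beside 11.7% of that list's regions with a gene, 13 lay outside genes and 9 in introns. KO-higher H3K9ac lay within 1 kb of a start in 6 of 12 regions (50%), beside 19.02% of its list. These 12 regions belong to 5 members, and those near a start include the regions at 0.995, 0.193 and 0.476 kb of Cyp2d26. They are therefore not independent. WT-higher H3K4me3 lay within 1 kb of a start in 5 of 8 (62.5%), beside 74.95%. At the edge of the 50 kb window, the last region inside was WT-higher H3K27ac at Cyp2c69, 48.6 kb away with a fold of 2.41, and the first outside was WT-higher H3K4me3 at Cyp2j8, 50.9 kb away, with a fold of 3.39.

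Similar sequence elsewhere in mm9 limits where a region can be placed. The copies counted here lie anywhere in the genome, at other P450 genes or away from them. For some regions the closest copy lay at an unrelated gene, as for Cyp4f15 (Ipmk) and Cyp2u1 (Wdfy3). Of the 66 P450 regions, 32 have a copy of at least 85% identity elsewhere in mm9 and 10 one of at least 95%. Of the 39 KO-higher acetylation regions, 21 and 3 do.

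Marks seldom differed on the same bases. Of the 59 P450 regions of active marks, 11 (18.6%, 10.7 to 30.4) shared at least 1 base with a region of another active mark in the same direction, close to the 20.2% of 18043 such regions over all genes. Regions that shared bases in opposite directions were 3 of 59 (5.08%, 1.74 to 13.9), all at the Cyp2d22 promoter, beside 1.47% over all genes.

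Windows of 300 bases about each summit were searched for the 4 hexamers named above on both strands. They were present in 14 of 27 windows of KO-higher H3K27ac at P450 genes (51.9%, 34.0 to 69.3) and in 52.2% of that list. For KO-higher H3K9ac they were present in 11 of 12 windows (91.7%, 64.6 to 98.5) and in 52.0% of that list, but 6 of these windows are at Cyp3a25 and 3 at Cyp2d26, and they lie close together. No window of the 39 KO-higher acetylation regions held an exact direct repeat with 1, 3, 4 or 5 bases between hexamers, an everted repeat with 6, or CAAAGTCCA, and direct repeats with 4 bases between occurred in 0.156% of the 8976 KO-higher acetylation windows. The sequence TTTATGG was present in 1 P450 window, that of WT-higher H3K4me1 at Cyp3a13, and in 2.91% of its list. A match is a run of letters and not a bound site.

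The genes that serve or sense the P450 enzymes were listed with them. Por, the reductase that supplies electrons to microsomal P450 enzymes, had 15 KO-higher H3K27ac regions (folds 1.498 to 4.11) and 6 KO-higher H3K9ac regions (folds 1.90 to 4.92). KO-higher H3K27ac lay at 5 of 9 partner genes, beside 11.6% of all genes, the others being the cytochrome b5 gene Cyb5b (fold 2.31), its reductase Cyb5r3 (2.57), the haem-binding P450 partner Pgrmc1 (6.31) and Alas1 (2.60), the first enzyme of haem synthesis. Cyb5b also had WT-higher H3K4me3 (fold 1.53). The mitochondrial electron carriers Fdx1, Fdx1l and Fdxr and the erythroid enzyme Alas2 had no region.

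Of the 7 sensors, KO-higher H3K27ac lay at 3, beside 11.6% of all genes. Nr1i2, which encodes the pregnane X receptor, had 20 such regions (folds 1.84 to 5.86) and 11 KO-higher H3K9ac regions (folds 1.58 to 4.78), beside 1 WT-higher region each of H3K4me3 (fold 1.59) and H3K4me1 (fold 2.66). Ppara had 33 KO-higher H3K27ac regions (folds 1.72 to 6.75) and 13 of H3K9ac (folds 1.79 to 7.11). Hnf4a, a regulator of enterocyte and liver genes, had 4 KO-higher H3K27ac regions (folds 1.64 to 2.31) and 1 WT-higher H3K4me3 region (fold 1.68), and Rxra had 1 WT-higher H3K27ac region (fold 2.23). Nr1i3, Ahr and Arnt, the remaining sensors, had none. These lists were short and the genes differ in length, so their counts are descriptions.

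Markers of mature enterocytes were mostly in the KO-higher acetylation lists. KO-higher H3K27ac lay at 7 of 8 enterocyte markers (Vil1, Fabp1, Fabp2, Apoa1, Apoa4, Alpi and Krt20) and KO-higher H3K9ac at 5 of 8, beside 11.6% and 4.02% of all genes. Vil1 stood apart, with KO-higher regions of all 4 marks that have a KO list, also of repressive H3K9me3, at folds up to 71.0. Without Vil1 the counts were 6 and 4 of 7. Of the hepatocyte markers 1 of 6 had KO-higher H3K27ac (Apoh, fold 4.89), and of the secretory markers 1 of 5 (Chga, folds 1.52 and 1.78). WT-higher regions lay at the hepatocyte markers Serpina1a (H3K27ac, H3K9ac, H3K4me3 and H3K4me1) and Ahsg (H3K4me1), at the secretory markers Chga (H3K27ac) and Muc2 (H3K4me1), and at Krt20 (H3K4me1), and Chga also had KO-higher H3K9ac. None of the 5 immune markers was in any list, and of the 5 stromal markers only Col3a1 was, with KO-higher H3K9me3. In the authors' deposited table, Krt20 RNA had a log2 fold change of 1.097 (FDR 4.53e-20) and Serpina1a, a hepatocyte marker, of -0.73 (FDR 1.96e-07). Whether a different share of mature enterocytes plays a part in the acetylation at P450 genes was not tested, and since the lists hold differences and not levels, they do not check the labelled tissue.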

How the data were processed

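ChIP of the 6 marks gave 12 libraries, read for 50 cycles and, per the labels, mapped to mm9. Software named in the submitters' processing notes was CASAVA version 1.8.2, the aligner Bowtie2 version 2.2.9, the caller MACS2 version 2.1.1 and the toolkit HOMER version 3.12. The version in the file headers is 2.0.10.20130419 for MACS, with tags of 75 bp. Regions were called by the authors with the other genotype's library as control, q cutoff 0.05 and 1 tag per position, per the file headers. For each region the authors deposited the pileup (a signal), the fold (a ratio to nearby background in the other library), and -log10 of the p-value and q-value. Of 12 lists, 2 repeat another, and 10 were used. RNA values are the authors' deposited log2 fold change, whose direction was read from the column name, with an FDR (adjusted p-value). The 12 per-library columns of that table, from 6 RNA libraries, were not used.

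Regions were joined to GENCODE vM1 starts with Python 3.11.15 and pandas 2.3.3. Genes of chromosome 18, where no list has a region, and of chromosome Y were left out, which leaves 9 of 11 partner genes and 8 of 9 enterocyte markers. Copies were sought with blastn 2.17.0 (at least 85% identity over 80% of a region). The P450 genes, roles and marker lists were chosen with earlier results of these data known. Every member with a region was to be named, with full values for the 3 of highest fold per list, for those with several active marks or both directions, and for those past the RNA threshold. No test was run between genotypes, since each has 1 library per mark. Assignment and motif search were tested on simulated data. Alternatives were a 10 kb window, -log10 q of at least 5, fold of at least 4, other sets of starts, gene bodies, the gene the authors name, a wider rule for shared regions, a stricter RNA threshold and, added after the data were seen, leaving out the Cyp3a genes or regions with a copy of at least 95% identity.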

Additional observations from a re-analysis of the deposited data

How the results depend on the processing

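No paired analysis was possible because each group holds 1 library and no result comes from a test, and for the same reason no replicate could be left out. Of 67 recomputed counts, 40 stayed within 1.5 times the value reported and 27 did not; the cause was not tested. The direction of a list is fixed by how it was made, so these counts cannot test it. KO-higher H3K27ac, at 16 members, was left at 5 with a fold of at least 4, but at 14 within 10 kb, at 12 without the Cyp3a genes and at 15 without regions that have a copy of at least 95% identity. KO-higher H3K9ac, at 5 members, was left at 3 with a fold of at least 4 and at 3 without the Cyp3a genes, and was at 5 without near-identical regions. Within 10 kb, WT-higher H3K27ac was at 1, WT-higher H3K9ac at 1, KO-higher H3K9me3 at 1, WT-higher H3K9me3 at 1 and WT-higher H3K27me3 at 0. With -log10 q of at least 5, WT-higher H3K27ac was at 2, WT-higher H3K9ac at 0, KO-higher H3K4me3 at 0, WT-higher H3K4me3 at 1, WT-higher H3K4me1 at 1, KO-higher H3K9me3 at 0, WT-higher H3K9me3 at 1 and WT-higher H3K27me3 at 0. With a fold of at least 4, WT-higher H3K27ac was at 1, WT-higher H3K9me3 at 1, and KO-higher H3K4me3, WT-higher H3K4me3, WT-higher H3K4me1 and WT-higher H3K27me3 were at 0. By overlap with the gene body, WT-higher H3K27ac was at 2, WT-higher H3K4me1 at 1 and WT-higher H3K9ac at 1. With starts of all annotated genes, WT-higher H3K9ac was at 1 and WT-higher H3K27me3 at 0. In the members' regions, pileups of 11 to 147 limit the precision of a fold.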
